A study of Mus musculus with 2 samples.

Results

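The genes of the mTOR complexes and of the TSC brake on them were examined in macrophages grown from mouse bone marrow. The data were a CUT&Tag map made with an antibody to PHLPP1, a phosphatase known for acting on the kinase AKT. The 9 genes were Mtor, Mlst8, Rptor, Rictor, Mapkap1, Tsc1, Tsc2, Rheb and Rps6kb1, chosen by name out of 21887 protein-coding genes. Every deposited peak was taken whose summit lay in the body of one of these genes or within 50 kb of either annotated end, which gave 232 of 240661 peaks of the IL-4 list and 109 of 149349 peaks of the untreated list. No pair of the 9 windows overlapped. The windows covered 1.79 Mb, of which 49.8% was gene body. The IL-4 peak closest inside the window edge lay 49733 bp from an end of Rptor with 3 fragments, and the closest outside lay 50285 bp from an end of Rps6kb1 with 4. In the untreated list these were peaks 48387 and 50487 bp from an end of Rheb, with 4 and 5 fragments.

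The study had 2 libraries. The first came from macrophages treated for 4 h with 20 ng/ml of IL-4, a cytokine known for inducing the alternatively activated state, and the other from untreated macrophages. Both cultures were grown from bone marrow with recombinant mouse M-CSF at 20 ng/ml, and the series design describes the cells as wild type. An antibody to PHLPP1 was used to direct a transposase to chromatin, so a peak is meant to mark DNA cut near the antibody's target. No library from cells lacking PHLPP1 and no control antibody library was analysed here, so the part of the signal that depends on PHLPP1 was not tested. With 1 library per group there is no replicate check, no test was made, and every difference below is a difference between 2 peak lists.

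mTOR is a kinase that couples growth signals and nutrients to protein synthesis and autophagy. It works in a pair of complexes that share the mTOR and mLST8 proteins. Complex 1 is defined by Raptor, the product of Rptor, and phosphorylates the kinase encoded by Rps6kb1. Complex 2 is defined by Rictor and by SIN1, the product of Mapkap1, and phosphorylates AKT at the hydrophobic motif, the site that PHLPP phosphatases remove. TSC1 and TSC2 form a complex that switches off the small GTPase Rheb, the direct activator of complex 1. In macrophages this pathway is known to influence the response to IL-4.

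IL-4 peaks stood at the annotated starts of 6 of the 9 genes, Mlst8, Tsc1, Rheb, Mtor, Mapkap1 and Rps6kb1, and untreated peaks at the starts of 2, Mlst8 and Tsc2. A peak was placed at a start when its summit lay within 1 kb of it. Over the 17492 protein-coding genes with a known strand, 39.9% had an IL-4 start peak and 13.9% an untreated one. At q of at most 0.05, by the authors' peak caller, the starts of 5 of 9 genes had an IL-4 peak and those of 2 of 9 an untreated peak, beside 16.7% and 2.65% of all genes. These are counts over 9 genes chosen by name, and they are given beside the background without a test.

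The promoters that an IL-4 start peak reached are printed to show which promoter bases lay under these peaks. Each run holds 250 bases before and 50 after a RefSeq transcript start on GRCm38.p6, the same build as the mm10 coordinates of the peaks, read 5′ to 3′ along the gene. At Tsc1, Mlst8 and Rps6kb1 this transcript start lay inside the gene and not at the outer gene end used to place start peaks. The Tsc1 run thus lay almost wholly inside the annotated gene, and the Rps6kb1 summit lay upstream of the transcript start of its run. Capitals mark the bases inside the IL-4 peak.
Mlst8: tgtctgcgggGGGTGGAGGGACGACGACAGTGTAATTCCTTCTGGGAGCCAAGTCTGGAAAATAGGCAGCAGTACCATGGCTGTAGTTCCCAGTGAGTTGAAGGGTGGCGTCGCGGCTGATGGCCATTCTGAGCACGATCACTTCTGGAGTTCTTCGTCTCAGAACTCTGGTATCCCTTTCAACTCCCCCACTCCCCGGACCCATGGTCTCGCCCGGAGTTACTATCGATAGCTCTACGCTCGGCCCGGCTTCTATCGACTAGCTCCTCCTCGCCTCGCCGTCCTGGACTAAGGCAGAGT
Tsc1: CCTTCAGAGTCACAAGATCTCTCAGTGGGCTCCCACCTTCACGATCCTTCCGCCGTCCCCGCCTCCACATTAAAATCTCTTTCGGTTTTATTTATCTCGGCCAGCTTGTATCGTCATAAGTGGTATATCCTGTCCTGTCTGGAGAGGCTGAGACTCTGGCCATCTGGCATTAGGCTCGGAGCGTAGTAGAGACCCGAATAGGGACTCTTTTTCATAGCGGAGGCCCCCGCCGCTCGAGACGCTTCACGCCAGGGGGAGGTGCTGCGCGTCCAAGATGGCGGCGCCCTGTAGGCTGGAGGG
Rheb: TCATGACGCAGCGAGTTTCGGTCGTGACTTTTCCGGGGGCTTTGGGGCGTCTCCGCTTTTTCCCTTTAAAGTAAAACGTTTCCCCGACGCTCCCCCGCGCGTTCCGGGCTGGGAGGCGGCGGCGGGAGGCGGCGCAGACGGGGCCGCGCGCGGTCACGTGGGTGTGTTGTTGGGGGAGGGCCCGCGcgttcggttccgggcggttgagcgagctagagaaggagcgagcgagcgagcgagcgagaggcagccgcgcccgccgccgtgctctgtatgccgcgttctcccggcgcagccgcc
Mtor: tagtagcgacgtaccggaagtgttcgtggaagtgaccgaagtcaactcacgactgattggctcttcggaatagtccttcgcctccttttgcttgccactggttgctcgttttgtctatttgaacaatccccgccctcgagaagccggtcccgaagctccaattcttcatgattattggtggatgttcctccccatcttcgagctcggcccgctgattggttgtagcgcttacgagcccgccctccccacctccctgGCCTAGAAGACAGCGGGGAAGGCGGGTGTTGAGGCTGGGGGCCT
Mapkap1: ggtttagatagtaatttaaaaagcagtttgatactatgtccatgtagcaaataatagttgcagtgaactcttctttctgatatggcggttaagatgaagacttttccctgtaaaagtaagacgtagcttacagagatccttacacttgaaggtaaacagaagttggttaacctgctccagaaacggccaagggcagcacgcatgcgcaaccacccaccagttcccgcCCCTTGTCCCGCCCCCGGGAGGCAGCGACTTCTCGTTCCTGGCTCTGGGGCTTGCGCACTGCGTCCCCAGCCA
Rps6kb1: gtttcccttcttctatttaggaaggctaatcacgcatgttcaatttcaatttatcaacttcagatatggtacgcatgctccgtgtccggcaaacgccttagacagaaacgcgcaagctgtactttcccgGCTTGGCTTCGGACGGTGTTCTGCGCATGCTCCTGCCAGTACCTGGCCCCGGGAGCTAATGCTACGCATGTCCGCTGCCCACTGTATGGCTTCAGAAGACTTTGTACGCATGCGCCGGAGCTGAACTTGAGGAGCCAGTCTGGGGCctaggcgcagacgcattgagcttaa
They lie at chr17:24479029-24479328 (minus strand) for Mlst8, chr2:28640983-28641282 (plus) for Tsc1, chr5:24842312-24842611 (minus) for Rheb, chr4:148448332-148448631 (plus) for Mtor, chr2:34406521-34406820 (plus) for Mapkap1 and chr11:86544758-86545057 (minus) for Rps6kb1. The IL-4 peak held 300 of the 300 bases at Tsc1, 290 at Mlst8, 186 at Rheb, 146 at Rps6kb1, 73 at Mapkap1 and 44 at Mtor. The summit of the peak lay inside the printed run at Mapkap1 and Rps6kb1 only. At the other 4 genes the capitals are the flank of a peak whose summit lay outside the run, by 44 bp at Mtor, 62 bp at Tsc1 and 102 bp at Mlst8, in each case farther into the gene, and by 290 bp at Rheb, farther upstream. The untreated peak at Mlst8 held 69 bases of its promoter, and that at the Tsc2 start held none of the Tsc2 promoter. Mapkap1 has 2 promoters in the table, of which the first listed is shown.

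Mlst8, which encodes the WD-repeat protein common to both complexes, had the peak of highest −log10 q in all 9 windows. By fold over local background, an IL-4 peak at Rnft1 in the Rps6kb1 window was higher, at 8.16. Mlst8 was the only one of the 9 with a start peak in both lists. Its IL-4 peak lay at chr17:24478813-24479318 and rested on 14 fragments at the summit (exact Poisson 95% interval 7.65 to 23.5). The untreated peak at chr17:24478778-24479097 rested on 7 (2.81 to 14.4). Fragment numbers were solved from the deposited fold and p of each peak, and their intervals cover counting error only. The fold over local background was 8.01 for the IL-4 peak and 4.13 for the untreated peak, and the −log10 q was 8.30 and 1.57. The counting intervals of the 2 fragment numbers overlap. The summits lay 79 bp apart, 187 and 108 bp inside the gene from its start. As high a −log10 q at a gene start was reached by 163 of 17492 genes (0.932%) in the IL-4 list, and 435 genes (2.49%) reached the value of the untreated peak in the untreated list.

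Mtor, encoding the kinase itself (chromosome 4, 148448582 to 148557685, plus strand), had an IL-4 start peak of 6 fragments (2.2 to 13.1) at chr4:148448588-148448763, with its summit 93 bp inside the gene and a −log10 q of 1.84. The untreated list had no peak at this start, and its nearest summit was 15776 bp away, with 7 fragments. An IL-4 peak needed at least 3 fragments to be listed and an untreated peak at least 4, so the lack of an untreated peak leaves room for a few fragments. The strongest untreated peak of the Mtor window lay in the gene body, 26979 bp from the start. It had 8 fragments (3.45 to 15.8), and its −log10 q was 2.08. A second IL-4 peak of the same strength as the start peak lay 48844 bp beyond the 3′ end, inside Masp2.

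Of the gene specific to complex 1, Rptor, the start had no peak in either list. Rptor is the longest of the 9, 296687 bp on chromosome 11 (119602905 to 119899591, plus strand). The IL-4 summit nearest its start lay 1133 bp inside the gene, with 3 fragments, just outside the 1 kb limit. Its only gene-end peak was a weak IL-4 peak of 3 fragments (0.619 to 8.77), 925 bp beyond the 3′ end. The strongest IL-4 peak of the window lay 29223 bp upstream of the start, with 7 fragments and a −log10 q of 2.58. The strongest untreated peak of all 9 windows lay inside Rptor at chr11:119768122-119768380, 165378 bp from the start. It had 11 fragments (5.49 to 19.7), and its −log10 q was 3.31. No IL-4 peak overlapped it.

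The genes specific to complex 2 differed from each other. Mapkap1 (chromosome 2, 34406771 to 34624958, plus strand) had an IL-4 start peak of 6 fragments (2.2 to 13.1) at chr2:34406748-34406894, with its summit 28 bp inside the gene, the closest to a start among the 9 genes, and a −log10 q of 1.84. The nearest untreated summit lay 5377 bp away, with 4 fragments. A second IL-4 gene-end peak of 3 fragments lay 525 bp inside the 3′ end. At q of at most 0.05 Mapkap1 had 3 IL-4 peaks and 6 untreated peaks. It and Tsc1, with 2 and 3, were the genes of the 9 with fewer IL-4 than untreated peaks at that limit. The share of all genes with fewer at that limit is not given here, so these small counts have no background beside them. The strongest untreated peak of Mapkap1, of 8 fragments, lay in the gene body 34501 bp from the start.

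Rictor (chromosome 15, 6708349 to 6800401, plus strand) had no peak within 1 kb of either end in either list, and it was the only one of the 9 without one. Its body held 11 IL-4 peaks and 0 untreated peaks, and all 3 untreated peaks of the window lay beyond the 3′ end. These 11 peaks were weak. The strongest had 6 fragments and a −log10 q of 1.84, 54426 bp from the start, and it was the only peak of the window at q of at most 0.05. The Rictor promoter had the highest GC content of the 9, at 78.3%.

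The TSC genes had start peaks in opposite lists. Tsc1 (chromosome 2, 28640993 to 28691172, plus strand), which encodes the protein that stabilises TSC2, had an IL-4 start peak at chr2:28640924-28641473 of 8 fragments (3.45 to 15.8), a fold of 5.48 and a −log10 q of 3.40. The nearest untreated summit was 15332 bp away, with 4 fragments. As high an IL-4 value at a start was reached by 951 genes (5.44%). The window of Tsc1 also held an untreated peak of 8 fragments in the gene body, 31960 bp from the start, with a −log10 q of 2.08.

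Tsc2 (chromosome 17, 24595816 to 24632676, minus strand), which encodes the GTPase-activating protein acting on Rheb, had an untreated start peak at chr17:24633429-24633656 of 8 fragments (3.45 to 15.8), a fold of 4.32 and a −log10 q of 1.97. Its summit lay 883 bp upstream of the Tsc2 start and inside the neighbouring Nthl1, 879 bp from the start of that gene, so it cannot be assigned to Tsc2 alone. The nearest IL-4 summit was 1409 bp away, with 4 fragments. IL-4 summits 1287 bp inside Tsc2 and 2292 bp upstream of it fell outside the 1 kb limit. An untreated start peak of as high a −log10 q was found at 174 genes (0.995%). The strongest IL-4 peak of the window had 9 fragments (4.12 to 17.1) at a −log10 q of 2.58. It lay 46087 bp beyond the 3′ end inside Pkd1 and overlapped an untreated peak of 4 fragments.

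Rheb (chromosome 5, 24802823 to 24842361, minus strand), the target of the TSC complex, had an IL-4 start peak at chr5:24842426-24843078 of 8 fragments (3.45 to 15.8). At 653 bp it was the widest of the IL-4 start peaks. Its summit lay 540 bp upstream of the start, the farthest of the IL-4 start peaks, and its −log10 q was 2.46. The nearest untreated summit was 21552 bp away, with 5 fragments. An IL-4 peak 18795 bp beyond the 3′ end had 7 fragments and the same −log10 q to 3 digits. No untreated peak of the Rheb window had more than 6 fragments, and 0 of them passed q of at most 0.05.

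Rps6kb1 (chromosome 11, 86498869 to 86544885, minus strand), encoding the kinase of ribosomal protein S6 that complex 1 activates, had the weakest IL-4 start peak. It lay at chr11:86544783-86544928 and rested on 5 fragments (1.62 to 11.7), and its −log10 q of 1.26 is short of q 0.05. Its summit was 40 bp inside Rps6kb1 and 146 bp from the start of the neighbouring Tubd1. The strongest peak of its window belonged by position to another gene. This IL-4 peak of 13 fragments (6.92 to 22.2), with a −log10 q of 8.22, lay 131 bp from an end of Rnft1 and 14343 bp beyond the 3′ end of Rps6kb1. An IL-4 peak of 10 fragments with a −log10 q of 3.51, inside Vmp1 and 42086 bp upstream of Rps6kb1, overlapped an untreated peak of 4 fragments.

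**Figure D1:**
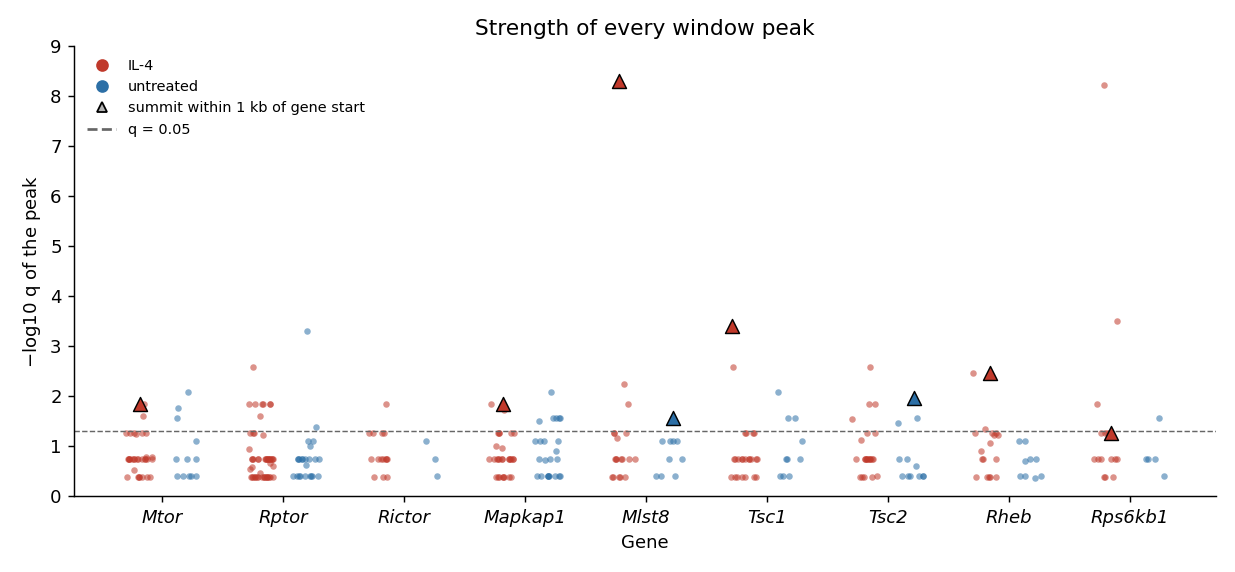
Strength of every window peak, as −log10 q, by gene, with IL-4 peaks left of untreated peaks for each gene. Triangles mark summits within 1 kb of the gene start and the dashed line marks q of 0.05. The Mlst8 start peak at 8.30 and the Rps6kb1 window peak at 8.22, which lies at Rnft1, stand above all other peaks of the 9 windows.

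The 6 IL-4 start peaks ranged from 5 to 14 fragments and from 146 to 653 bp in width, with summits 28 to 540 bp from the start. As high an IL-4 −log10 q at a start was reached by 0.932% of genes for Mlst8 and 5.44% for Tsc1. For Rheb this share was 8.98%, for Mtor and Mapkap1 14.7% each, and for Rps6kb1 23.1%. All 6 had more than 4 fragments, the lowest number in the untreated list. Fragment numbers of the 2 libraries were not scaled to each other here. The lowest background was 0.643 fragments with IL-4 and 0.936 in untreated cells. Of the 2 untreated start peaks, that of Mlst8 lay within 500 bp of the start and that of Tsc2 did not. Over all genes with a known strand, IL-4 summits numbered 18.3 per 100 genes in the first 500 bp inside the gene and 15.7 in the 500 bp before the start, against 4.65 and 4.50 in the untreated list. From 4500 to 5000 bp inside the gene the values were 4.89 and 2.54.

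**Figure D2:**
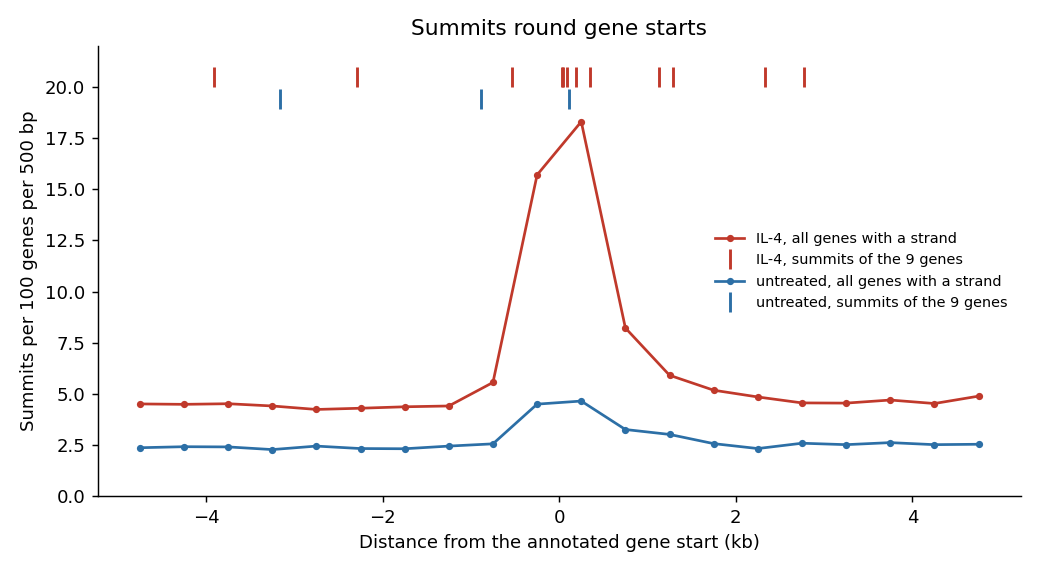
Summits per 100 protein-coding genes in 500 bp bins round the annotated gene start (lines), with the summits of the 9 genes within 5000 bp of their starts as ticks above. The IL-4 line reaches 18.3 and the untreated line 4.65 in the bin just inside the start. The 9 genes had 12 IL-4 and 3 untreated summits in this range. These counts cover the whole range, while the lines give each 500 bp bin separately. The counts are therefore not on the scale of the lines, and no excess at the 9 genes is read from them. Over all 17492 genes a bin held 4.24 to 18.3 IL-4 and 2.28 to 4.65 untreated summits per 100 genes. The IL-4 line was the higher in every bin, so more IL-4 summits were found over all genes as well.

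With both ends of a gene counted, 6 of the 9 genes were marked by IL-4 peaks alone, beside 35.5% of all protein-coding genes. Mlst8 was the 1 gene with both (13.8% of all), Tsc2 the 1 with an untreated peak only (8.93%) and Rictor the 1 with neither (41.8%). The IL-4-only genes were Mtor, Rptor, Mapkap1, Tsc1, Rheb and Rps6kb1. The class depended on the distance allowed: within 3 kb, 5 genes had peaks of both kinds, 3 of IL-4 alone, 0 of the untreated cells alone and 1 of neither, beside 38.6%, 34.9%, 7.68% and 18.8% of all genes at that distance. The genes with both thus grew in number over all genes as well. The IL-4 peak gained at Tsc2 within 3 kb had 4 fragments, and the untreated peaks gained had 4 at Mtor and 5 at Rptor and Mapkap1. These untreated peaks lay at 3′ ends, 1542 bp beyond that of Mtor, 1021 bp inside that of Rptor and 2909 bp beyond that of Mapkap1. The Mtor one was 808 bp from the start of Exosc10. The starts of Mtor, Rptor and Mapkap1 thus had no untreated summit within 3 kb.

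None of the 8 motifs searched was in all 9 promoters. The letters ATGGCGGC, read by the factor YY1, were found in the promoters of Tsc1 and Rictor, beside 3.02% of the 21263 promoters of protein-coding genes in the table. The Tsc1 match began 24 bp after the transcript start, inside the IL-4 peak, and the Rictor match 22 bp after it, where no peak was listed. The letters GCATGCGC of the NRF1 motif were found at Mapkap1 and Rps6kb1 (3.52% of promoters). Rps6kb1 held them 2 times, with both matches inside its IL-4 peak, and the Mapkap1 match began 51 bp before the start, outside the peak. The ETS core CCGGAA was found at Mtor, Rheb, Rictor and Tsc2 (18.7%), and CACGTG, the E-box read by TFEB and MYC, at Rheb alone of the 9 (7.84%), 96 bp before the start and inside the IL-4 peak.

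TTCNNNNGAA, the spacing preferred by STAT6, was found in 0 of the 9 promoters, beside 6.35% of all. TTCNNNGAA, the spacing of other STAT factors, was found at Mtor only (7.69%), as TTCGTGGAA beginning 228 bp before the start, outside the IL-4 peak. The cAMP response element TGACGTCA was in 0 of 9 (2.23%) and the SP and KLF box GGGGCGGGG in Rictor only (15.4%). Both strands were searched, matches of different motifs in these promoters did not overlap, and a match is a match of letters and not a measured site. GC content ran from 41.7% at Rptor to 78.3% at Rictor, with a median of 57.3% and 20 CpG dinucleotides, beside 56.3% and 13 over 17492 genes. Genes with an IL-4 start peak had a median GC content of 60.7% and those without 52.7%. For untreated start peaks these medians were 60% and 55.7%, so a higher GC content went with start peaks in both lists.

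All 9 windows held more IL-4 than untreated peaks, as did 85.5% of all protein-coding genes. The median window of the 9 genes held 23 IL-4 and 10 untreated peaks, beside 14 and 7 over all protein-coding genes. Shares of all genes given for windows, here and below, were not matched for this difference. Rptor had 52 IL-4 peaks and 24 untreated peaks, Mtor 33 and 12, Mapkap1 31 and 24, Tsc1 24 and 10, and Tsc2 23 and 12. Mlst8 had 19 and 10, Rheb 18 and 9, Rps6kb1 17 and 5, and Rictor 15 and 3. Counts followed window length in part, from 105.6 kb at Mlst8 to 396.7 kb at Rptor. Per 100 kb, IL-4 peaks ran from 7.81 at Rictor to 18.0 at Mlst8, and untreated peaks from 1.56 at Rictor to 9.47 at Mlst8. Rictor was thus the sparsest and Mlst8 the densest in both lists. The Mlst8 window also touched the most other protein-coding genes, 9, against 1 for Mapkap1.

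**Figure D3:**
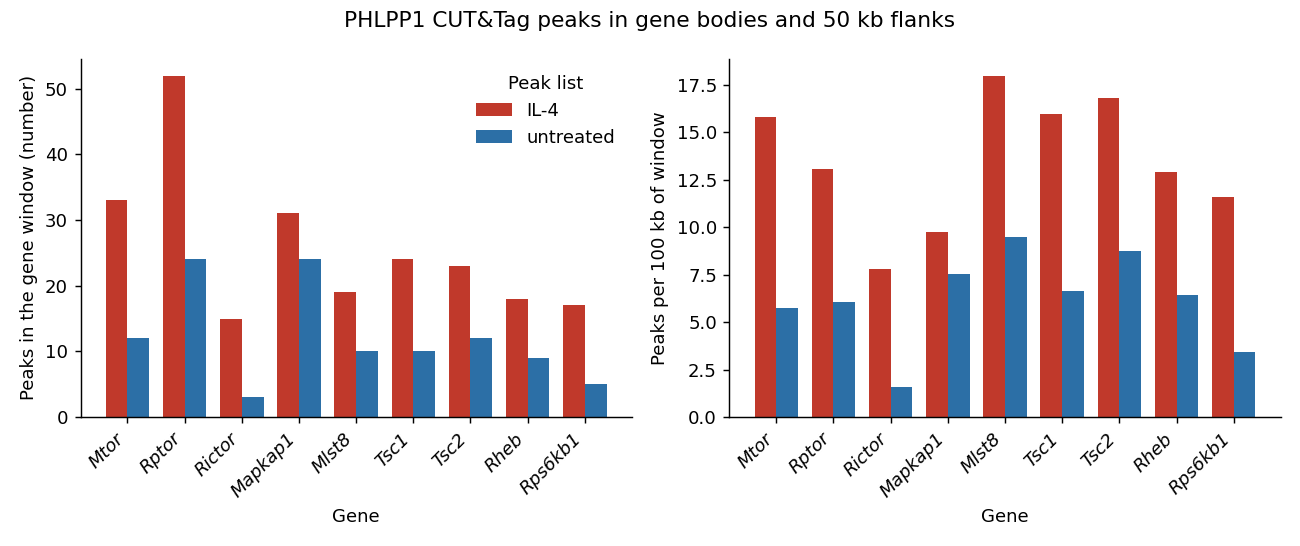
Peaks in the body and 50 kb flanks of each gene (left, number; right, per 100 kb of window), with IL-4 bars left of untreated bars. The IL-4 bar is the higher in all 9 genes, with the smallest gap at Mapkap1 (31 and 24 peaks) and the largest ratio at Rictor (15 and 3).

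The log2 ratio of IL-4 to untreated peaks, with 1 added to each count, had a median of 1.08 over the 9 genes and 0.79 over all protein-coding genes. It was at least 1 for 5 of the 9, Rictor (2.0), Rps6kb1 (1.58), Mtor (1.39), Tsc1 (1.18) and Rptor (1.08), beside 40.6% of all genes. Rheb (0.93), Tsc2 (0.88), Mlst8 (0.86) and Mapkap1 (0.36) were under 1, and 0 of the 9 were at -1 or lower (0.74% of all genes). The IL-4 list gave 68.0% of the 341 window peaks (Wilson 95% interval 62.9 to 72.8) and 61.7% of all peaks of the series. This interval covers counting error only, and the peaks of a window share a region and a library. With at least 4 fragments, the lowest number listed for untreated cells, the shares were 61.5% in the windows and 52.2% overall.

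Most window peaks were weak in both lists, with a median of 4 fragments in IL-4 peaks and 5 in untreated peaks. At q of at most 0.05 the windows kept 30 IL-4 peaks (12.9%, 9.21 to 17.9) and 19 untreated peaks (17.4%, 11.5 to 25.6), close to the 12.5% and 14.6% of the whole lists. Rptor held 8 of the 30 and Mapkap1 6 of the 19. All 9 genes had such an IL-4 peak somewhere in the window, as did 79.4% of all genes, and 7 had an untreated one (60.5%), the exceptions being Rictor and Rheb. Gene bodies held 104 IL-4 peaks (44.8%, 38.6 to 51.3) and 53 untreated peaks (48.6%, 39.4 to 57.9), beside 49.8% of the window length. Ends of other protein-coding genes lay within 1 kb of 19 IL-4 and 6 untreated summits.

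**Figure D4:**
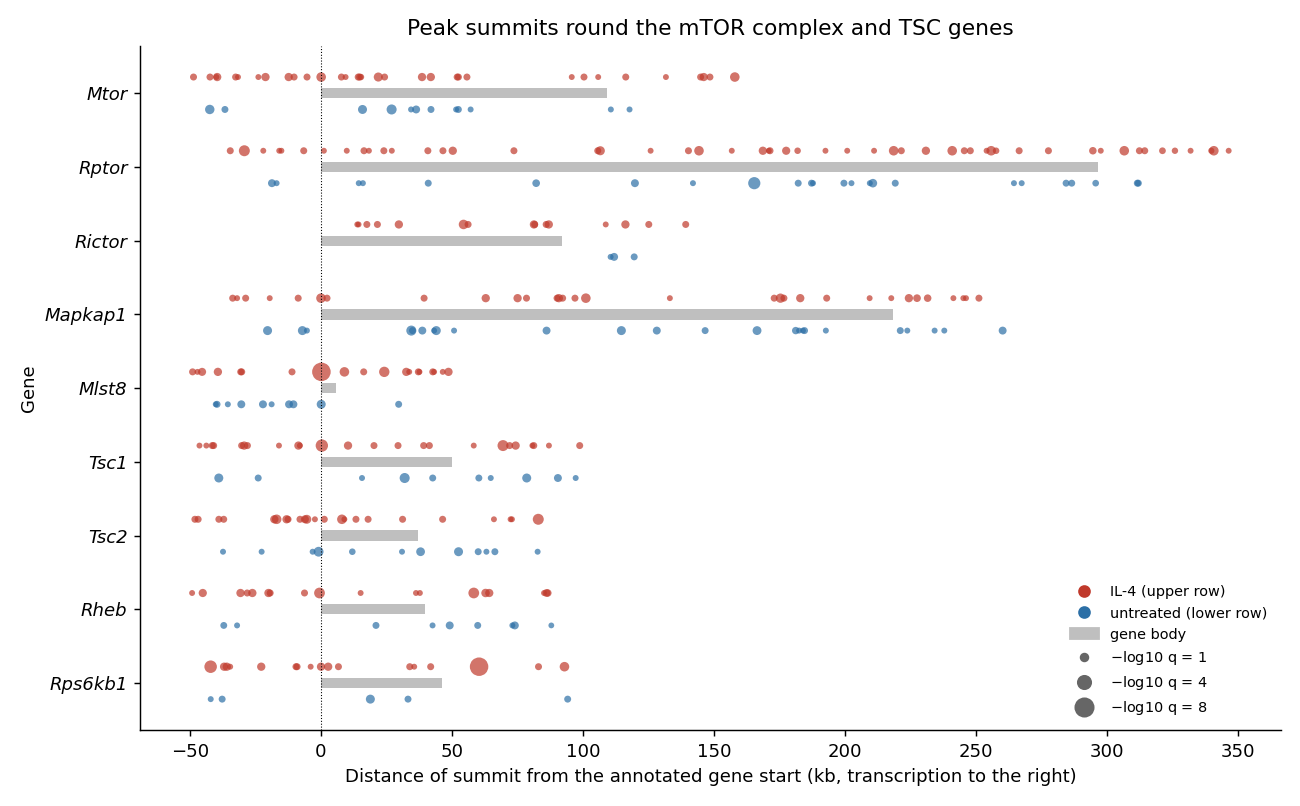
Summits of all 232 IL-4 peaks (upper row of each gene) and 109 untreated peaks (lower row) by distance from the gene start in kb, with transcription to the right, the gene body in grey and point area growing with −log10 q. Peaks are spread over bodies and flanks, and the body of Rictor has 11 IL-4 and 0 untreated summits.

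Few sites were shared. Of the IL-4 window peaks 9 (3.88%, 2.05 to 7.21) overlapped an untreated peak by at least 1 bp, and 9 untreated ones (8.26%, 4.4 to 15.0) were met by an IL-4 peak, beside 5.42% and 8.73% of the whole lists. Mtor held 3 of these sites, Rptor 2, and Mapkap1, Mlst8, Tsc2 and Rps6kb1 held 1 each. Rictor, Tsc1 and Rheb held 0. The Mtor site with the most untreated fragments, 42417 bp upstream of the start, had 4 fragments with IL-4 and 8 in untreated cells, with −log10 q of 0.753 and 1.77. At q of at most 0.05 in both lists the only shared site was the Mlst8 start, 1 of 30 IL-4 window peaks. The share over the whole lists at that limit is not given here, so this count has no background beside it.

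Of 58 other genes of the pathway, 33 had a peak at an end with IL-4 alone (56.9%), 12 under both conditions (20.7%), 1 in untreated cells alone (1.72%) and 12 under neither (20.7%). Over all protein-coding genes these shares were 35.5%, 13.8%, 8.93% and 41.8%. Peaks under both conditions need not share a site. At Telo2, Tti1, Grb10, Lamtor5, Sesn2 and Seh1l the strongest peaks of the 2 lists lay at opposite ends. In the rest of the 12 they lay at the same end. At q of at most 0.05, 14 of the 58 had an IL-4 gene-end peak and 2 an untreated one, beside 18.3% and 4.02% of all protein-coding genes. Their window log2 ratio had a median of 0.85 and was at least 1 for 25 of them (43.1%), near the median of 0.79 and the share of 40.6% over all genes. Fnip2, encoding a partner of folliculin in nutrient sensing by complex 1, had the strongest, an IL-4-only start peak of 15 fragments (8.40 to 24.7) with a −log10 q of 10.3. Eif4ebp2, encoding a translation repressor that complex 1 phosphorylates, followed with 10 fragments and 4.86, also IL-4 only.

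Akt1s1, encoding the complex 1 inhibitor PRAS40, had a peak of 12 fragments with IL-4 and another of 4 in untreated cells, with −log10 q of 2.98 and 0.408, near an end of Tbc1d17. Tti1, encoding an assembly factor of mTOR complexes, had 7 and 4, one peak at its start and the other at its 3′ end, and its IL-4 peak is also 94 bp from the start of Rprd1b. Eif4ebp1, a second translation repressor gene, had 7 and 4. Wdr59, of the nutrient-sensing GATOR complexes, had 7 fragments at its start with IL-4 alone and a −log10 q of 2.08. A further 6 genes were tied at 1.84: Fnip1, Lamtor2, Seh1l, Sesn1, Sesn3 and Slc38a9. In the untreated list the highest values were those of Lamtor5 and Sesn1, with 7 fragments and 1.57 each, and Akt2, Seh1l, Sesn2 and Telo2 were tied at 1.11.

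Mlst8 was closest, by −log10 q of the IL-4 gene-end peak among the 12 pathway genes with peaks in both lists, to Akt1s1, Tti1 and Eif4ebp1. These differed from its 8.30 by 5.31, 5.72 and 5.74, so no gene of that class came near it by −log10 q. The likeness rests on this 1 value of the IL-4 library. By fragments the IL-4 peak of Akt1s1 was closer, with 12 (6.2 to 21) beside 14 (7.65 to 23.5) at Mlst8, and these intervals overlap. In the untreated list Mlst8 had a −log10 q of 1.57 and each of these 3 genes 0.408.

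Peak lists do not measure expression, so the macrophage label could not be checked against RNA. Of 10 macrophage marker genes, 5 were marked at an end with IL-4 alone (Cd68, Mertk, Cd14, Spi1 and Tyrobp), Fcgr1 under both conditions, and Adgre1, Csf1r, Itgam and Lyz2 had none in either. The share with IL-4 alone was 50% of these 10, beside 35.5% of all genes. Of 30 markers of neutrophils, T and NK cells, B cells, dendritic cells, erythroid and stromal cells, 11 were marked with IL-4 alone, 3 under both conditions, 3 in untreated cells alone and 13 under neither, so 36.7% were IL-4 only. At q of at most 0.05, 2 of the 10 macrophage markers and 1 of the 30 others had an IL-4 gene-end peak, beside 18.3% of all genes. Whether other cells contributed to the start peaks of the 9 genes was not tested.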

How the data were processed

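CUT&Tag peaks of 1 IL-4 and 1 untreated library were analysed from the authors' deposited narrowPeak lists, 1 list per library. The tools listed in the submitters' processing notes, without roles, are DiffBind, MACS2 2.2.7.1 and Bowtie 0.12.8, with the build mm10. Read depth, duplicate handling and any control used for calling are not stated there. The deposited score is 10 times the −log10 p without decimals. The deposited fold is a linear ratio over the authors' local background, and the −log10 p and −log10 q in the deposited lists come from their peak caller. No listed peak had a −log10 p under 2.00. Fragments at a summit were solved from fold = (fragments + 1)/(background + 1) and a Poisson upper tail, and a whole number fitted within 0.01 in 100% of entries. The lowest background was 0.643 fragments with IL-4 and 0.936 in untreated cells. PCR copies are not independent molecules, so all intervals cover counting error only.

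Where an interval had several summits, its extra entries (654 with IL-4, 203 untreated) were dropped and it was reduced to the summit of highest −log10 q. Genes came from RefSeq GRCm38.p6. Strand came from its promoter table for 17492 genes, and the other 4395 had none and were left out of counts at starts. The outer gene end was used as the start. Promoter letters are those of the table. All 9 genes and all 58 pathway genes matched by symbol. Peaks named are those at gene ends, the strongest of each window and list, those with a −log10 q of at least 3, and overlapping ones with q of at most 0.05. Named pathway genes are the 8 highest in the IL-4 list and the 4 highest in the untreated list, with ties. Counting steps were tested on simulated data. Python 3.11.15, scipy 1.17.1 and pandas 2.3.3 were used. The genes, lists and motifs were chosen with earlier results of these data known.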

Additional observations from a re-analysis of the deposited data

How the results depend on the processing

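Windows of 10 kb held 126 IL-4 and 64 untreated peaks, windows of 100 kb held 328 and 179, gene bodies alone 104 and 53, and a limit of q 0.05 left 30 and 19. The IL-4 share of window peaks, 68.0% as reported, was 61.2% at q of at most 0.05, 61.5% with at least 4 fragments, 58.6% with lists of equal length and 54.7% with at least 5 fragments, beside 57.8%, 52.2%, 50% and 43.9% of all peaks. It was 64.7% to 66.3% with the other windows, 67.4% without peaks at other genes' ends and 71.0% without Rptor and Mapkap1. Within 500 bp of an end, 0 of the 9 genes were untreated only and 4 in neither list; within 3 kb, 5 were in both, 3 IL-4 only and 0 untreated only. Genes in neither list numbered 3 at q of at most 0.05 and 2 with lists of equal length, with starts only and with at least 5 fragments. For the 58 pathway genes, 28 were in both lists, 0 untreated only and 6 in neither within 3 kb, and at q of at most 0.05 there were 1 in both, 13 IL-4 only and 43 in neither. Class shares over all genes are given here only for all peaks within 1 kb and 3 kb. Class counts at the other settings thus have no background beside them. The overlap with untreated peaks was 2.59% when at least 0.5 of the shorter peak had to be shared and 3.33% at q of at most 0.05. The overlap over the whole lists at these settings is not given here. The limit of 5 fragments, the leaving out of peaks at other genes' ends and that of the 2 longest genes were chosen after seeing the data. The cause of these shifts was not tested, other than that stricter limits keep fewer peaks. No paired analysis was possible because each group has 1 library.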

Other observations

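The exosome gene Exosc10, which encodes a nuclease, has its start next to the 3′ end of Mtor, and an untreated peak of 4 fragments lay 808 bp from that start. The Mlst8 window also held IL-4 peaks at the starts of E4f1, with 7 fragments and a −log10 q of 2.24, and Pgp, with 6 and 1.84. The Tsc2 window held IL-4 peaks of 6 and 5 fragments 738 and 148 bp from the start of Slc9a3r2. These neighbours were named after their values were seen.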
